A study of Mus musculus with 12 samples.

Results

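The 9 genes described here encode enzymes of triglyceride assembly from glycerol 3-phosphate, and were taken by name as rows of a liver expression table: Gpd1, Gpam, Agpat2, Agpat3, Lpin1, Lpin2, Lpin3, Dgat1 and Dgat2. All 9 had a row among the 17714 genes of the table, and all 9 were among the 13569 genes tested, those that averaged 10 or more normalized counts. The livers came from 6 female mice with a global Lcorl knockout (KO), in which the gene is disrupted throughout the body rather than in the liver alone, and from 6 female wild-type mice (WT). All 12 mice were 3 weeks old, at weaning, and no drug or diet treatment is named in the labels. Each liver has its own animal number, and the sources used here do not say how the knockout allele was made.

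Hepatocytes build triglycerides by adding fatty acyl chains to a glycerol 3-phosphate backbone in successive steps. A dehydrogenase supplies the backbone, 2 acyltransferase steps make phosphatidic acid, lipins remove its phosphate to give diacylglycerol, and a last acyltransferase step completes the triglyceride. Phosphatidic acid and diacylglycerol are also precursors of membrane phospholipids, and the liver stores triglyceride in droplets or exports it in lipoproteins.

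The targeted transcript checked the labels. Lcorl was listed at 0 in 5 KO livers and at 2.83 normalized counts in KO 5, against 234 to 308 in the WT livers (log2 fold change −7.78, SE 0.316, limma adjusted p = 1.36e-08). Depth, as reads recovered from the deposited values, was 27692285 to 31296485 in 5 KO libraries and 21769795 to 28655120 in the 6 WT libraries. Hepatocyte markers (Alb, Ttr, Apoa1, Cps1 and Tat) summed to 2881605 to 3707700 normalized counts in KO livers and 3269014 to 3638598 in WT livers. WT 6 stood apart in fat-cell transcripts, with Adipoq at 53.4, Cfd at 101 and Plin1 at 30.5 normalized counts, where no other liver passed 0.975, 2.07 and 1.04. KO 2 alone had the pancreatic transcript Reg1, at 126 normalized counts. Results that turn on these livers are given with and without them.

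Among the 9 genes the transcripts of Lpin1 and Lpin2 varied most, and promoter windows of these genes are shown for that reason. A window of Lpin3, which varied little, is shown as that of the remaining lipin gene. Each runs from 250 bases before to 50 bases after an annotated start, from RefSeq on GRCm38.p6. Capitals mark the letters CACGTG, the palindromic E-box core.
Lpin1 (chr12:16610917-16611216, minus strand): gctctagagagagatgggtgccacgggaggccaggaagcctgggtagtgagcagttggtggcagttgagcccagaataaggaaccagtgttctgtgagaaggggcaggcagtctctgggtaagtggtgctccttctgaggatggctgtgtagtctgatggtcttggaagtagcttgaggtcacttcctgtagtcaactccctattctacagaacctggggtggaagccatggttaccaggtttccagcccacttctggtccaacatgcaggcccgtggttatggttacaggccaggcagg
Lpin2 (chr17:71183282-71183581, plus strand): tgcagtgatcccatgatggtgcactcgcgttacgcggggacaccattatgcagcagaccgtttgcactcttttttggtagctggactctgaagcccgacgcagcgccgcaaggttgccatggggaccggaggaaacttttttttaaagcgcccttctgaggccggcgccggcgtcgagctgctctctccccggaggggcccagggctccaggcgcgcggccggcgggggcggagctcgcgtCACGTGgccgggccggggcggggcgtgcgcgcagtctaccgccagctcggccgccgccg
Lpin3 (chr2:160880420-160880719, plus strand): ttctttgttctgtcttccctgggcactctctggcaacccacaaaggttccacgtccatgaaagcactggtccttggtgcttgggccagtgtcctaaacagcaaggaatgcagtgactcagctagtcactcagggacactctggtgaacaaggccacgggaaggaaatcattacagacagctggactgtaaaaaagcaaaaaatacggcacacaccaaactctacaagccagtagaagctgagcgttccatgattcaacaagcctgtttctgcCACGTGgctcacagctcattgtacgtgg
CACGTG lies at position −9 from the start in this Lpin2 window and at position 23 in this Lpin3 window, and these letters are not in the Lpin1 window. Of 3 Lpin2 and 2 Lpin3 windows in the table, the 1 of each that holds CACGTG is printed; the other 2 Lpin2 windows and the other Lpin3 window lack it. Of the 32851 promoter windows in the table, 7.15% hold CACGTG. Windows were listed for 6 of the 9 genes, 10 in all, the other windows belonging to Gpam, Agpat2, Agpat3 and further starts of Lpin2 and Lpin3. TCACNCCAC, a form of the sterol regulatory element held by 1.24% of all windows on either strand, was found in none of the 10. CCAAT, searched on both strands and held by 37.4% of all windows, was found in 1 Gpam window at position −74 and in 1 further Lpin2 window at positions −233, −165 and −57, each time as its reverse complement. The 3 motifs share no matched bases. A match of letters is a description and was not tested for binding.

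Genotype was compared for every gene with limma on log2(normalized count + 1), and a negative fold change means a lower level in KO. In all, 601 of the 13569 tested genes passed an adjusted p of 0.05, which is 4.43%. Of the 9 assembly genes 0 passed, and 0 of 9 passed in edgeR, in DESeq2 or in the authors' deposited table, where the shares of all genes called were 3.4%, 9.51% and 8.68%. At an unadjusted p under 0.05 there were 2 of 9, Lpin1 and Agpat2, against 23.4% of all tested genes. The KO and WT ranges overlapped for all 9 genes, whereas 2.96% of tested genes had ranges that did not. Point estimates were lower in KO for 6 genes and higher for 3, with a median log2 fold change of −0.15, against 0.0075 over all tested genes. In bulk liver RNA, fewer cells of a type and less RNA per cell cannot be told apart.

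**Figure D1:**
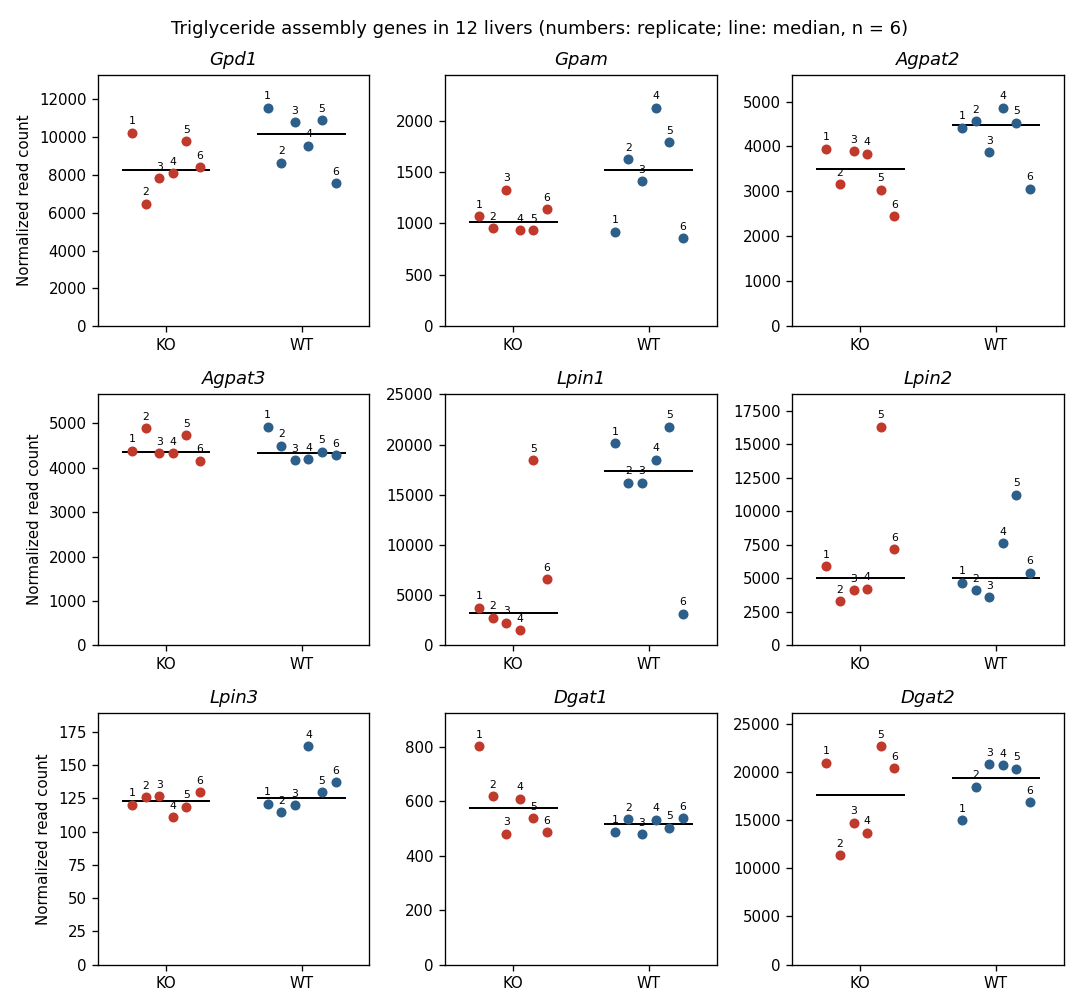
Normalized read counts (vertical axes, starting at 0) of the 9 triglyceride assembly genes in each liver, KO on the left and WT on the right of each panel. Points are single livers with their replicate number, and the line is the median of 6. Lpin1 is low in 5 KO livers and in WT 6, and KO 5 stands highest for Lpin2 at 16312.

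Gpd1, the cytosolic glycerol 3-phosphate dehydrogenase that forms the backbone from a glycolytic intermediate, lies on chromosome 15 from 99717515 to 99725005 on the plus strand of GRCm38. Its normalized counts were 10237, 6475, 7834, 8098, 9798 and 8418 in KO 1 to KO 6, against 11562, 8649, 10779, 9550.0, 10893 and 7548 in WT 1 to WT 6. The groups overlapped widely, with KO 2 lowest and WT 6 next to it. Gpd1 averaged 8477 ± 1372 in KO livers and 9830 ± 1531 in WT livers (SD, n = 6 each), and the log2 fold change of −0.21 had a 95% interval of −0.49 to 0.06 (adjusted p = 0.331, limma). Its exons share 384 bases, 13% of their length, with the antisense gene Gm16537, and the sources used here do not say whether counting used strand, so this count may hold reads of both.

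Gpam, the mitochondrial acyltransferase that attaches the first acyl chain, is on chromosome 19 from 55067268 to 55127238, minus strand. It measured 1071, 955, 1329, 934, 934 and 1137 normalized counts in KO 1 to KO 6, against 921, 1625, 1414, 2127, 1792 and 853 in WT 1 to WT 6. All 6 KO livers lay below the WT median of 1519, but WT 1 and WT 6 lay below every KO liver. The WT livers spanned a 2.49-fold range and the KO livers a 1.42-fold range. The log2 fold change was −0.39 with a 95% interval of −0.83 to 0.05 (adjusted p = 0.272, limma).

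The next acyl chain is added by the 1-acylglycerol-3-phosphate acyltransferases, of which Agpat2 is the form whose loss causes a congenital lipodystrophy in humans. Agpat2, on chromosome 2 from 26593057 to 26604417, minus strand, measured 3948, 3159, 3895, 3840.2, 3036 and 2445 normalized counts in KO 1 to KO 6, against 4421, 4558, 3879, 4865, 4533 and 3057 in WT 1 to WT 6. All 6 KO livers were below the WT median of 4477 and 2 of them below every WT liver. The means were 3387 ± 607 in KO and 4219 ± 654 in WT (SD, n = 6 each). The log2 fold change of −0.32 had a 95% interval of −0.61 to −0.03, and the difference did not pass over all genes (adjusted p = 0.178, limma). Its exons share 64 bases with Egfl7 on the opposite strand, 3.01% of their length.

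Agpat3, a related acyltransferase on chromosome 10 from 78269178 to 78352489, minus strand, was the steadiest of the 9. Its counts ran from 4159.8 to 4896 with a median of 4362 in KO livers, and from 4173 to 4924 with a median of 4328 in WT livers. The highest of the 12 livers was only 1.18-fold above the lowest. The log2 fold change of 0.02 had a 95% interval of −0.11 to 0.15 (adjusted p = 0.865, limma), or 0.93-fold to 1.11-fold on the linear scale. The sign turned without KO 2 (−0.0043).

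Lipins are phosphatidate phosphatases, and lipin 1 also acts in the nucleus as a transcriptional coactivator; in the mouse, loss of Lpin1 causes fatty liver dystrophy. Lpin1 lies on chromosome 12 from 16535669 to 16610966, minus strand. It measured 3744, 2772, 2271, 1524, 18418 and 6611 normalized counts in KO 1 to KO 6, against 20146, 16215, 16205, 18483, 21771 and 3148 in WT 1 to WT 6. In 5 KO livers Lpin1 was below 5 of the WT livers, while KO 5 stood among the WT livers and WT 6 among the KO livers. The medians were 3258 in KO and 17349 in WT. The means were 5890.1 ± 6387 in KO and 15995 ± 6662 in WT (SD, n = 6 each), so the SD exceeded the mean in KO.

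Lpin1 had the largest point estimate of the 9, a log2 fold change of −1.76 (SE 0.592, 95% interval −3.04 to −0.49), but its difference did not pass over all genes (adjusted p = 0.1, limma). The adjusted p was 0.24 in edgeR and 0.165 in DESeq2, both on the 11 libraries other than KO 2, and 0.128 in the authors' deposited table. In limma without KO 2 the log2 fold change was −1.65 and the adjusted p 0.154. Without WT 6, the liver with fat-cell transcripts, the log2 fold change was −2.19 and the adjusted p 0.0263, with 6.87% of all genes called. Without KO 5 it was −2.20 and 0.0342, with 3.47% of genes called, and without WT 6 and KO 2 together −2.08 and 0.0431, with 6.73% called.

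The animal numbers fall into 4 runs separated by gaps of at least 10, of which 3 hold both genotypes. The gap between WT 3 and KO 2 is exactly 10. A slightly larger cutoff would join the run of WT 2 and WT 3 to that of KO 2, KO 3, KO 4 and WT 4, and was not tried. Within the run of KO 1 and WT 1, Lpin1 differed by −2.43 on the log2 scale, and within that of KO 2, KO 3, KO 4 and WT 4 by −3.12. Within the run of KO 5, KO 6, WT 5 and WT 6 it differed by 0.41, the opposite sign. That run holds both livers that stood among the other genotype, KO 5 at 18418 and WT 6 at 3148. Beside them KO 6 measured 6611 and WT 5 21771. The run of WT 2 and WT 3 holds no KO liver and gives no difference. With the runs as a block the log2 fold change was −1.40 (adjusted p = 0.322, limma).

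Lpin2, on chromosome 17 from 71182560 to 71249817, plus strand, is a second phosphatase abundant in liver. It measured 5885, 3293, 4133, 4235, 16312 and 7169 normalized counts in KO 1 to KO 6, against 4683, 4140.0, 3585, 7608, 11246 and 5433 in WT 1 to WT 6. KO 5 was the highest of all livers and WT 5 the next, and the medians were 5060.0 in KO and 5058 in WT. The log2 fold change was 0.05 with a 95% interval of −0.74 to 0.84 (adjusted p = 0.958, limma), and its sign turned without KO 5 (−0.25).

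Lpin3, on chromosome 2 from 160880670 to 160906002, plus strand, had few transcripts and little spread. Its counts ran from 111 to 129.7 with a median of 123 in KO livers, and from 115 to 164 with a median of 125 in WT livers. WT 4 was the highest liver, and the other 11 lay within 111 and 137. The log2 fold change was −0.10 with a 95% interval of −0.31 to 0.12 (adjusted p = 0.606, limma).

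The balance between Lpin1 and Lpin2 passed its test over all 12 livers. With the runs of animal numbers as a block it did not pass before or after adjustment, and that test had too few splits to pass after adjustment. The ratio of Lpin1 to Lpin2 counts was 0.636, 0.842, 0.55, 0.36, 1.13 and 0.922 in KO 1 to KO 6, against 4.3, 3.92, 4.52, 2.43, 1.94 and 0.58 in WT 1 to WT 6. KO 5, whose Lpin1 level lay among those of the WT livers, had a ratio below 5 of the WT livers, since its Lpin2 was also high. All 6 KO livers lay below the WT median and 2 of them below every WT liver. The mean log2 ratio was −0.53 ± 0.59 in KO and 1.28 ± 1.13 in WT (SD, n = 6 each), a difference of −1.81 (two-sided exact permutation p = 0.0108, adjusted p = 0.0433 over the 4 ratios tested; 924 splits, smallest possible p 0.00216). The call was lost when any 1 liver other than WT 6 was left out (exact permutation, adjusted p 0.0519 to 0.0866), with differences of −1.95 to −1.62. It held without WT 6 (adjusted p = 0.00866) and without WT 6 and KO 2 together (difference −2.28, adjusted p = 0.0317). Within the run of KO 1 and WT 1 the log2 ratio differed by −2.76, and within that of KO 2, KO 3, KO 4 and WT 4 by −2.14. Within the run of KO 5, KO 6, WT 5 and WT 6 it differed by −0.054. With the runs as a block the difference was −1.35 (exact permutation of genotype within runs, p = 0.104, adjusted p = 0.208 over the 4 ratios; 48 splits, smallest possible p 0.0208), an alternative chosen after seeing the data. Given the p-values of the other ratios, even that smallest p would not have passed 0.05 after adjustment, so the adjusted blocked test cannot decide. Before adjustment the smallest possible p was under 0.05, and the observed p of 0.104 was not.

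Per kilobase of exon, Lpin1 made up 45.1 ± 10.3% of the 3 lipin transcripts in KO livers and 72.3 ± 16.6% in WT livers (SD, n = 6 each). The KO shares ran from 29.5 to 58.3%, and the WT shares from 40.4% in WT 6 to 83.7% in WT 3. Lpin2 held 50.9 ± 8.83% in KO livers and 25.7 ± 15.4% in WT livers. Lpin3 held 4.05 ± 1.97% in KO livers and 1.98 ± 1.31% in WT livers. The 3 together averaged 1201 ± 1054 normalized counts per kilobase in KO livers and 2190 ± 806 in WT livers (SD, n = 6 each). A higher share is therefore not a higher level, and Lpin2 and Lpin3 themselves had no detected difference. The ratio of Lpin3 to Lpin2 had no detected difference (−0.15 on the log2 scale, exact permutation p = 0.717, adjusted p = 0.717), and its sign turned without KO 5 (0.16).

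**Figure D2:**
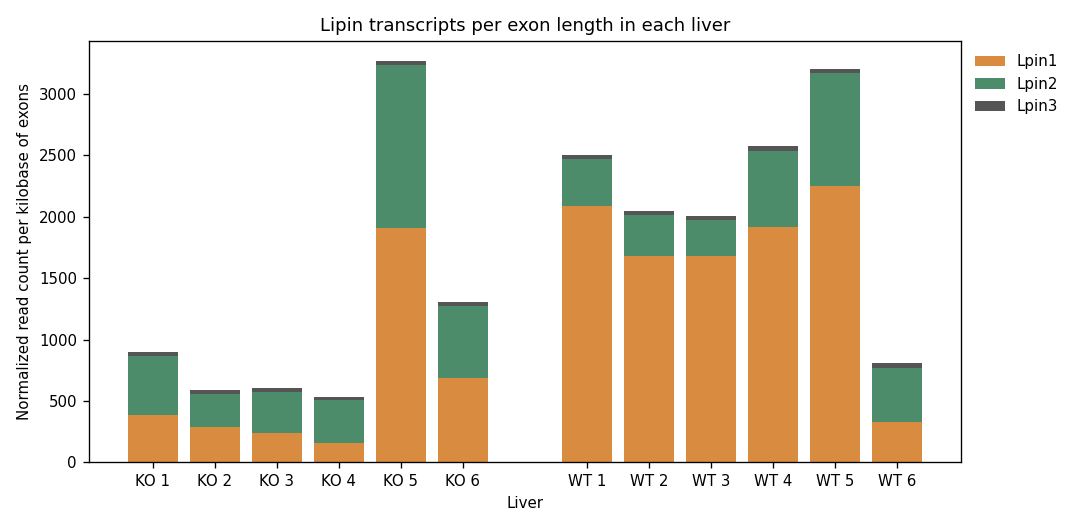
Stacked bars of normalized read counts per kilobase of exons for Lpin1, Lpin2 and Lpin3 in each liver (horizontal axis, KO 1 to KO 6 and then WT 1 to WT 6). Lpin1 is the larger part of the bar in the WT livers other than WT 6, where its share is 40.4%, and its share in KO livers is 29.5 to 58.3%.

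The last acyl chain is added by Dgat1 or Dgat2, which are unrelated in sequence. Dgat1, on chromosome 15 from 76502015 to 76511953, minus strand, measured 803, 619.6, 481, 609, 538 and 487 normalized counts in KO 1 to KO 6, against 488, 534, 478, 533, 502 and 537 in WT 1 to WT 6. Of the KO livers 4 were above every WT liver, although KO 5 exceeded the highest WT liver only narrowly, and the other 2 lay within the WT range. The means were 589.6 ± 119.8 in KO and 512 ± 25.9 in WT (SD, n = 6 each), with a log2 fold change of 0.18 and a 95% interval of −0.06 to 0.42 (adjusted p = 0.349, limma).

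Dgat2, the form tied to triglyceride made from newly synthesised fatty acids, is on chromosome 7 from 99153658 to 99182719, minus strand. It measured 20956, 11338, 14729, 13671, 22674 and 20371 normalized counts in KO 1 to KO 6, against 14998, 18453, 20791, 20692, 20328 and 16839 in WT 1 to WT 6. The KO livers lay at both ends, with KO 2, KO 3 and KO 4 below every WT liver and KO 1 and KO 5 above every WT liver. The log2 fold change was −0.15 with a 95% interval of −0.50 to 0.21 (adjusted p = 0.645, limma). KO 2, KO 3 and KO 4 share a run of animal numbers with WT 4, and the difference within that run was −0.65, against 0.48 in the run of KO 1 and WT 1 and 0.22 in the run of KO 5, KO 6, WT 5 and WT 6.

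Neither of the other 2 ratios, each between enzymes of the same step, passed. The log2 ratio of Dgat2 to Dgat1 differed by −0.33, with 4 KO livers below every WT liver (exact permutation p = 0.162, adjusted p = 0.216 over the 4 ratios). The log2 ratio of Agpat2 to Agpat3 differed by −0.34, with all 6 KO livers below the WT median and 3 of them below every WT liver (exact permutation p = 0.0498, adjusted p = 0.0996). Without WT 6 and KO 2 the Agpat2 to Agpat3 difference was −0.38 (exact permutation, adjusted p = 0.0476).

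**Figure D3:**
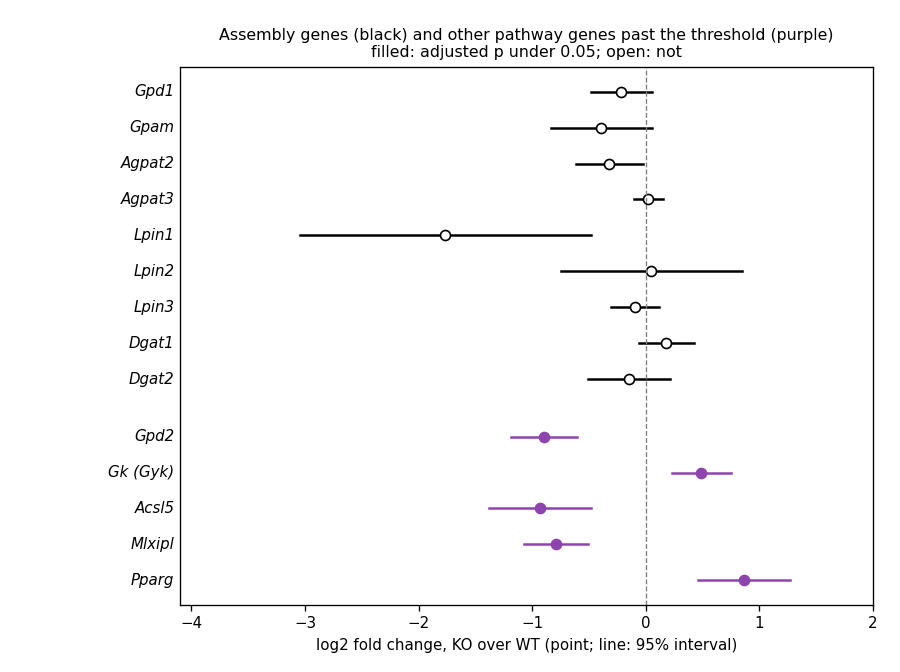
Log2 fold change, KO over WT (horizontal axis; point, with a line for the 95% interval), of the 9 assembly genes in black and of the 5 other pathway genes past the threshold in purple. Open points did not pass an adjusted p of 0.05; the interval of Lpin1, −3.04 to −0.49, is the widest.

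Between genes, levels were compared per kilobase of exon. In KO livers the order of mean levels was Dgat2 at 5608, Gpd1 at 2863, Agpat2 at 1590.3, Lpin1 at 609, Agpat3 at 574, Lpin2 at 559, Dgat1 at 193, Gpam at 159 and Lpin3 at 33 normalized counts per kilobase. In WT livers it was Dgat2 at 6060.2, Gpd1 at 3319.9, Agpat2 at 1981, Lpin1 at 1655, Agpat3 at 566, Lpin2 at 499.95, Gpam at 218, Dgat1 at 168 and Lpin3 at 35.5. Dgat2 and Gpd1 were separate from their next gene in both genotypes, as all 6 livers of 1 gene lay above all 6 of the other. Neighbours from Agpat2 to Lpin2 overlapped in both genotypes, as did Gpam and Dgat1, whose places differ between the genotypes. Lpin2 and Dgat1, neighbours only in KO livers, were separate in both genotypes. In WT livers Gpam came between them and overlapped Lpin2. Lpin3 lay below all its neighbours' livers in both genotypes. Dgat2 made up 96.5 ± 1.13% of the 2 Dgat transcripts in KO livers and 97.3 ± 0.37% in WT livers (SD, n = 6 each).

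The 9 genes differed in how far livers of the same genotype lay apart. The SD of the log2 level within genotype was 1.18 for Lpin1, at percentile 98.98 of the tested genes, and 0.73 for Lpin2, at percentile 95.35. Gpam followed with 0.40 (percentile 80.4) and Dgat2 with 0.32 (percentile 70.19). Agpat2 at 0.26, Gpd1 at 0.24 and Dgat1 at 0.20 lay near the median of all tested genes, 0.21. Lpin3 at 0.14 (percentile 28.54) and Agpat3 at 0.089 (percentile 6.91) were below it. Over the 12 livers the highest Lpin1 level was 14.3-fold the lowest, and the highest Lpin2 level 4.95-fold.

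**Figure D4:**
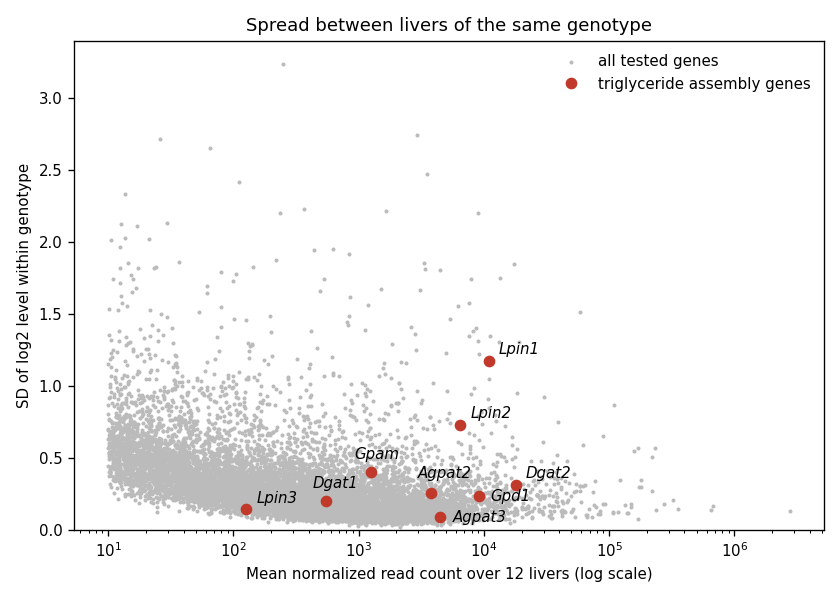
SD of the log2 level between livers of the same genotype (vertical axis) against the mean normalized read count over the 12 livers (horizontal axis, log scale) for all 13569 tested genes in grey and the 9 assembly genes in red. Lpin1 at 1.18 and Lpin2 at 0.73 lie high in the cloud and Agpat3 at 0.089 near its lower edge.

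Genes whose pattern over the 12 livers was most like that of the 2 variable lipins were looked up after those values were seen. The measure was the mean absolute difference between log2 levels centred on each gene's own mean. It includes the difference between genotypes. For Lpin1 the closest were Pklr, liver pyruvate kinase, at 0.50, Mfsd2a, a lysophospholipid transporter, at 0.58 and Celsr1, a cadherin-family receptor, at 0.61, where Lpin1 itself deviated from its mean by 1.31. Unlike Lpin1, Pklr, Mfsd2a and Celsr1 were lower in KO past the threshold (limma adjusted p = 0.0184, 0.0147 and 0.00181). In KO 5, where Lpin1 stood among the WT livers, each of them lay below every WT liver (6929, 781 and 159 normalized counts). For Lpin2 they were Tmem140 at 0.23, Fam13a at 0.27 and Tap1, a peptide transporter subunit, at 0.29, where Lpin2 deviated by 0.54.

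Other genes of glycerolipid metabolism were read from 5 lists with 53 genes, of which 50 were tested. Of these 50, 2 rose, 3 fell and 45 did not pass, and the median log2 fold change was −0.03. The shares of all tested genes that rose and fell were 1.75% and 2.68%.

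The list of backbone supply and paralogous assembly enzymes had 1 rise and 1 fall among 13 tested. Gpd2, the mitochondrial glycerol 3-phosphate dehydrogenase that oxidises the backbone itself, fell to 768, 1046, 1199.9, 863, 1277 and 1364 normalized counts in KO 1 to KO 6, against 2215, 1807, 1802, 2304, 2027 and 1806 in WT 1 to WT 6. No KO liver reached the lowest WT liver (log2 fold change −0.90, SE 0.136, adjusted p = 0.00384, limma). Gk, glycerol kinase, listed in the table as Gyk, rose to 5103 ± 767 in KO livers, against 3638 ± 543 in WT livers (SD, n = 6 each; log2 fold change 0.49, adjusted p = 0.0409, limma). The call of Gk was lost when KO 1, KO 2, KO 4, KO 5, WT 1, WT 2, WT 3 or WT 4 was left out, without WT 6 and KO 2 together, in edgeR, and with the runs as a block (limma adjusted p = 0.105). Other forms of the first acyltransferase did not pass: Gpat3 stood at 0.19 on the log2 scale (adjusted p = 0.563, limma) and Gpat4 at −0.11 (adjusted p = 0.578, limma).

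Of the long-chain acyl-CoA synthetases, which activate fatty acids for esterification, 1 of 4 tested fell. Acsl5 measured 7791, 5042, 9425, 6593, 9348 and 11814 normalized counts in KO 1 to KO 6, against 15093, 15997, 15982, 22531, 14797 and 10106 in WT 1 to WT 6. Only KO 6 and WT 6 overlapped (log2 fold change −0.93, SE 0.207, adjusted p = 0.0274, limma). The call was lost without KO 1, KO 4 or any of WT 1 to WT 5, and with the runs as a block (limma adjusted p = 0.146). Acsl1, which also activates long-chain fatty acids in liver, had 12159 ± 2913 in KO livers and 13311 ± 2904 in WT livers (SD, n = 6 each).

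In the phospholipid branch, which draws on the same phosphatidic acid and diacylglycerol, 0 of 16 genes passed in limma, with 3 at an unadjusted p under 0.05. Its smallest p belonged to Pcyt2, the rate-limiting enzyme of the ethanolamine branch, with a log2 fold change of −0.38 (adjusted p = 0.0702, limma). Pcyt1b, at a mean of only 11.9 normalized counts, was nearly level with it (log2 fold change −0.91, adjusted p = 0.0704, limma). Among partners of the lipins in dephosphorylation and coactivation, 0 of 5 passed and 0 had an unadjusted p under 0.05; Ppara, a nuclear receptor for fatty acids, came nearest with 0.26 (adjusted p = 0.269, limma).

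Of 12 transcriptional regulators of these genes, 1 rose and 1 fell. Mlxipl, which encodes the carbohydrate response factor ChREBP, fell to 3760.4, 4620.4, 3972, 3322, 3114 and 3726 normalized counts in KO 1 to KO 6, against 6833, 6967, 5291, 7373, 8043 and 4784 in WT 1 to WT 6. The ranges did not overlap (log2 fold change −0.79, SE 0.131, adjusted p = 0.00617, limma). Pparg, a nuclear receptor that drives fat storage, rose to 513 ± 123 in KO livers, against 280.3 ± 71 in WT livers (SD, n = 6 each; log2 fold change 0.87, adjusted p = 0.0244, limma). The call of Pparg was lost without KO 1, KO 4, WT 1, WT 2, WT 3 or WT 5, and with the runs as a block (limma adjusted p = 0.115). Of the adipocyte markers, Adrb3, the beta-3 adrenergic receptor, also rose, with 190.5 to 388 normalized counts in KO livers and 68.8 to 145 in WT livers (log2 fold change 1.28, adjusted p = 0.00569, limma). The summed level of the 6 adipocyte markers, 190.5 to 391.6 in KO livers and 68.8 to 337.4 in WT livers, is nearly all Adrb3 in every liver other than WT 6. The other 5 markers summed to 0 to 3.11 in KO livers, against at most 1.94 in WT 1 to WT 5 and 202 in WT 6, and Adipoq, Retn and Lep were listed at 0 in every KO liver.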

How the data were processed

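Total RNA of 12 livers was sequenced, per the labels' protocols. FastQC, STAR, featureCounts, DESeq2 and mm10 are named in the submitters' processing notes, without versions; the annotation and strand setting are not stated there. The signal deposited by the authors is normalized read counts, each library divided by its own factor. The authors' deposited comparison holds log2 fold changes, shrunken by a step its header does not name, and p-values, of which adjusted p-values are given.

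Genotype, the only term, was tested in limma 3.58.1 (R 4.3.3) on log2(normalized count + 1), moderated along the mean-variance trend, for genes averaging 10 or more. P-values are two-sided, adjusted by Benjamini and Hochberg over all genes tested, with a threshold of 0.05. In all 12 libraries 100% of values were whole multiples of the smallest value, to 0.001. The step of KO 2, 0.99, is the nearest to 1, and by its size alone its reads were not counted as recovered. For that reason edgeR 4.0.16 and DESeq2 1.42.0 were run on the whole reads of the other 11 libraries, a choice made after seeing the data. Positions and exon lengths are from GENCODE M21, promoters from RefSeq. Genes named are the 9 members, every gene of the other pathway lists past the threshold or otherwise the one with the smallest p, and Lcorl. Gpat3, Gpat4, Acsl1, Pcyt1b, Adrb3 and the genes with patterns like Lpin1 and Lpin2 were added after their values were seen. The members and lists were chosen with earlier results of these data known. Of 109 listed symbols, 8 were matched through an older name and 4 had no row.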

Additional observations from a re-analysis of the deposited data

Results flagged for a closer look

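In a search for livers far from the other 5 of their genotype, over 28 groups of 6 values, 3 were found. Chance flags about 1 group in 20 where values are normally distributed. Lpin1 in KO 5, at 18418 normalized counts, stood above the other KO livers, with a gap of 0.699 of the whole range. Lpin1 in WT 6, at 3148, stood below the other WT livers, with a gap of 0.701 of the range. Lpin2 in KO 5, at 16312, stood above the other KO livers, with a gap of 0.702 of the range. The critical gap for 6 livers is 0.625. The search used counts on the linear scale. On the log2 scale used for the fits a high liver such as KO 5 stands out less, and that scale was not searched. WT 6 is also the liver with Adipoq at 53.4 normalized counts, and the part of fat tissue in its Lpin1 level was not tested.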

How the results depend on the processing

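Against 601 genes called in all, 1288 were called by DESeq2 on 11 libraries and 158 with runs of animal numbers as a block, 224 to 932 when any 1 liver was left out, and 913 without WT 6 and KO 2; the cause was not tested. Of the 9 assembly genes, 0 were called in 21 of 24 alternatives; 1 was called, Lpin1, without WT 6 and KO 2, and 0 to 1 when 1 liver was left out (1 without KO 5 or without WT 6). Of the other pathway genes, 5 in the full set, 2 were called with the block and 2 to 6 when 1 liver was left out. Gpd2 and Mlxipl kept the call in all 24 alternatives, whereas Gk lost it in 11, Acsl5 in 8 and Pparg in 7, the block among them for each. The sign of Agpat3 turned in edgeR (−0.0048) and DESeq2 (−0.0050) on 11 libraries, without KO 2 (−0.0043) and without WT 6 and KO 2 (−0.0115). Agpat3 reached 0.0546 without WT 1. The sign of Lpin2 turned with the block (−0.0446) and without KO 5 (−0.247), KO 6 (−0.00985), WT 1 (−0.00454), WT 2 (−0.0401) or WT 3 (−0.0816), and its highest value with 1 liver left out was 0.248 (WT 5). The other 7 assembly genes kept their sign in all 24 alternatives. The Lpin1 to Lpin2 difference was −1.35 and no longer past the threshold with the block, and −2.23 to −1.62 when 1 liver was left out, that of Lpin3 to Lpin2 −0.345 to 0.158, and that of Agpat2 to Agpat3 −0.383 and past the threshold without WT 6 and KO 2. Count tests on all 12 libraries were not run. No paired analysis was possible because replicate numbers were given in accession order and pair no livers.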
